A study of Mus musculus with 24 samples.

Results

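The genes described here are Cd69 and Cd44, which encode surface proteins used to mark activated and tissue-resident T cells, and the 7 integrin genes Itgae, Itga1, Itga4, Itgal, Itgb1, Itgb2 and Itgb7. They were chosen by gene symbol, and 9 of the 24421 genes in the count tables matched. RNA of CD8 T cells sorted on CD45, CD3 and CD8 was sequenced in 24 libraries from mice. KC pancreas gave 12 libraries: 3 from mice aged 4 weeks, 2 from 9 weeks, 3 from 13 weeks, 2 from 20 weeks and 2 from 30 weeks. KC blood gave 9 libraries: 2 from mice aged 4 weeks, 1 from 9 weeks, 3 from 13 weeks, 1 from 20 weeks and 2 from 30 weeks. WT B6 mice gave 2 pancreas libraries, of 9 and 30 weeks, and 1 blood library of 30 weeks. The labels call the model KC, a name in use for mice that develop preinvasive pancreas lesions as they age. The labels give neither the alleles, the background strain of the KC mice, the sex nor whether animals were pooled. Single libraries are named by their titles, in which P8 stands for pancreas and B8 for blood.

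Integrins are pairs of an alpha and a beta chain that hold a cell to a vessel wall, to matrix or to other cells. A beta chain shared by several alpha chains makes several receptors. Itgal and Itgb2 form LFA-1, which binds ICAM-1 during arrest on endothelium and at the immune synapse. Itga4 pairs with Itgb1 to make VLA-4, a receptor for VCAM-1 and fibronectin, and with Itgb7 to make the receptor for MAdCAM-1 used in homing to gut. Itgae, called CD103, pairs with Itgb7 and binds E-cadherin of epithelium, and Itga1, called CD49a, pairs with Itgb1 and binds collagen. Cd69 is a lectin-type receptor that appears early after activation and holds T cells in tissue by pulling the sphingosine phosphate receptor S1pr1 from the surface. Cd44 is a receptor for hyaluronan that is kept high on antigen-experienced T cells. Tissue-resident memory CD8 T cells are commonly recognised by CD69 together with CD103 or CD49a.

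Reads counted in genes ranged from 6352070 to 16716169 per library, and levels are given as CPM, a gene's counts scaled by the total of its library. The CD8 T cell markers summed to 6410 to 19016 CPM in KC pancreas and 6154 to 15326 CPM in KC blood, so the sorted cell type was present in every library. Libraries fell into 2 carry-over sets of 12 by where traces turned up of 95 genes that were abundant in a single library and near 0 elsewhere. Such traces were detected in 92.4% of cases within the set of the source library and in 47.7% of cases in the other set. The sets were formed from these same traces, with their number fixed at 2. A gap between the 2 percentages is thus built in and is no separate evidence for the sets. Set 1 held the KC pancreas libraries of 4 and 13 weeks, 3 KC blood libraries (Sample_42B8, Sample_43B8, Sample_131B8) and all 3 WT libraries, and set 2 held the rest. None of the 9 genes was a trace gene, and values within each set stand beside the differences below. In bulk RNA of this kind, fewer cells of a type and less RNA per cell cannot be told apart.

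Across KC libraries the genes of LFA-1 led the order. Per kilobase of exon, the median level in KC pancreas was 176 CPM for Itgb2, 76.7 for Itgal, 60.5 for Itgb7, 40.4 for Itgb1, 29.7 for Cd69, 17.4 for Itga4, 16.7 for Itgae, 5.74 for Cd44 and 0.0118 for Itga1. In KC blood the medians per kilobase were 97.1 CPM for Itgb2, 49.8 for Itgal, 46.3 for Itgb7, 33.4 for Itgb1, 24.8 for Itga4, 16.6 for Cd69, 10.8 for Cd44, 3.95 for Itgae and 0.00637 for Itga1. The place of Itgb2 at the top and of Itga1 at the bottom was shared by both tissues. The ranges of neighbours in the order overlapped widely in both tissues: in KC pancreas Itgb2 spanned 83.7 to 674 CPM per kilobase and Itgal 37.6 to 149. Itga1 also lay clear of its neighbour by its median only, since its highest library in KC pancreas held 2.81 CPM per kilobase, above the lowest library of Cd44 with 0.858. Single libraries of 1 group differed from each other by large factors for most genes, as the plot of levels by library shows.

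**Figure D1:**
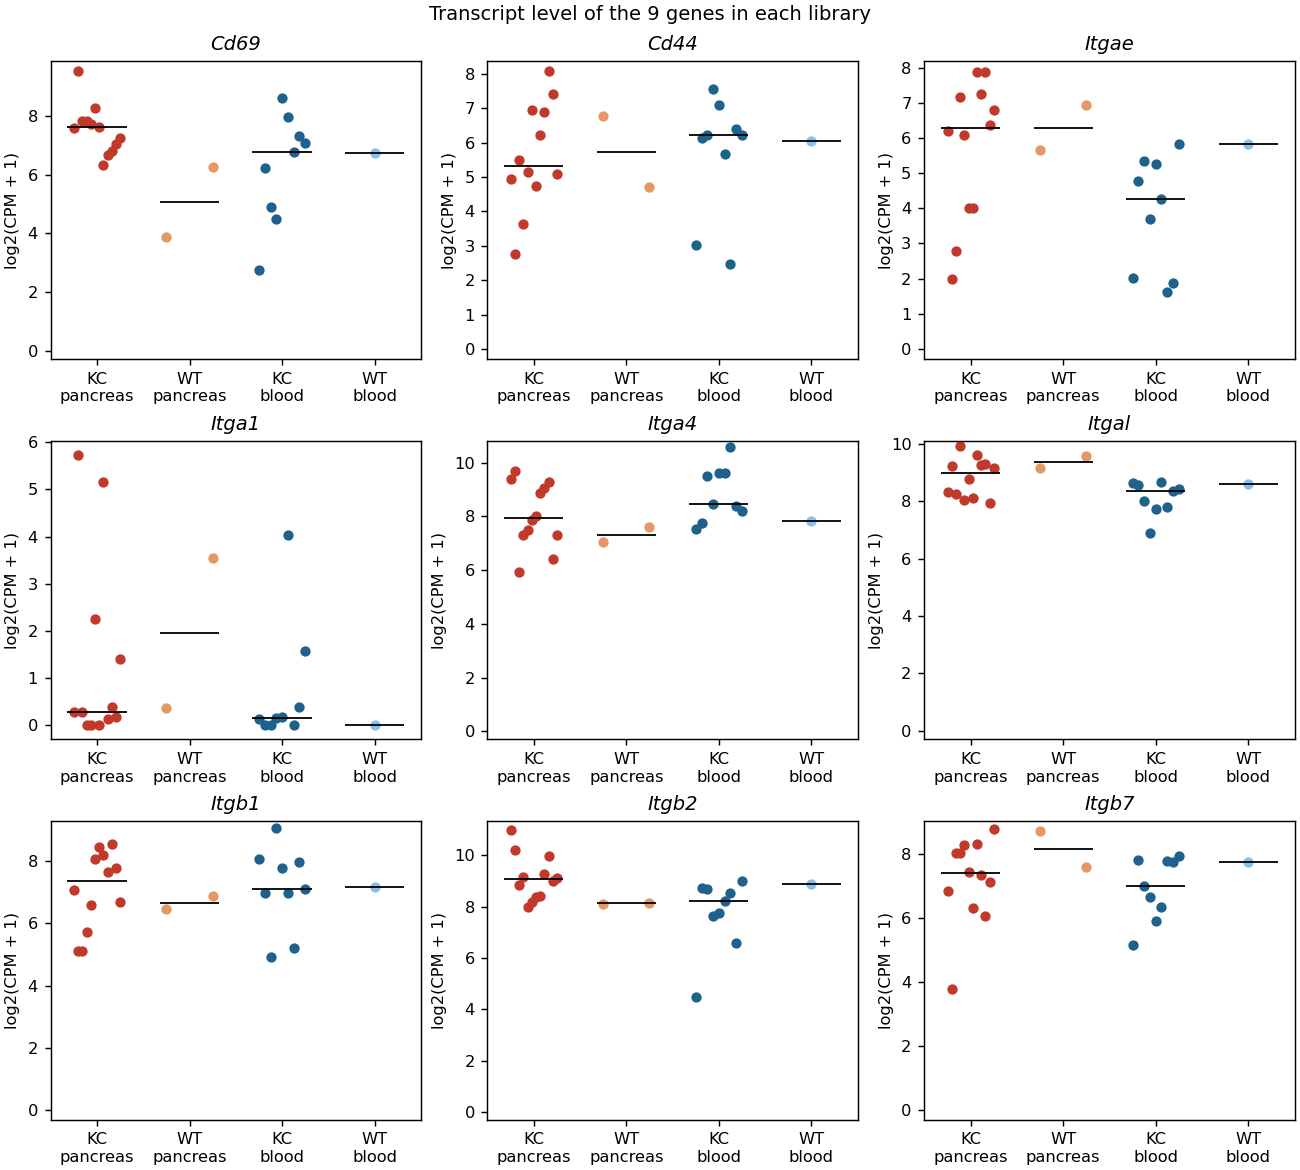
Log2(CPM + 1) of the 9 genes in each of the 24 libraries, by tissue and genotype, with a line at each group's median on this scale. Points of KC pancreas and KC blood overlap in every panel, and Itga1 lies near 0 except in a few libraries.

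Pancreas was compared with blood over 21 KC libraries in a model that also held age as a factor. Medians of Itgb2, Itgal, Cd69, Itgae, Itgb1, Itgb7 and Itga1 were higher in KC pancreas than in KC blood, and medians of Cd44 and Itga4 were lower. Ranges overlapped for all 9 genes: 0 of the 9 lay wholly above or below, beside 0.00727% of 13760 genes wholly above and 0.0145% wholly below. None of the 9 genes passed edgeR's quasi-likelihood test at a Benjamini-Hochberg adjusted p under 0.05, where 0.0904% of the 11059 genes tested did. At an unadjusted p under 0.05 the members were 3 of 9 (Itgb2, Itgal and Cd69), beside 9.85% of all genes. The log2 fold change was positive for 7 of the 9, with a median of 0.93, beside a median of -0.12 over all genes tested. DESeq2 called 2 of the 9 as higher in pancreas, Itgae and Itgb2, where it called 1.97% of genes higher, and gave no adjusted p for Itga1. P-values measure only the spread between these libraries, since the labels do not say whether each came from a separate animal.

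**Figure D2:**
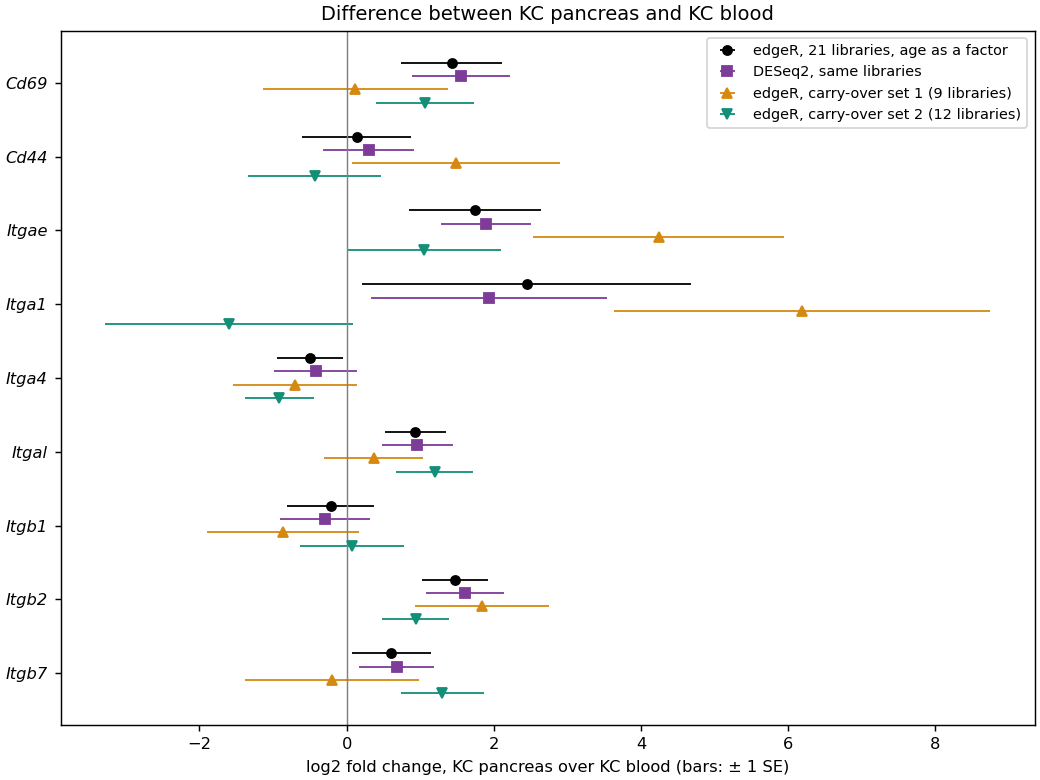
Log2 fold change of KC pancreas over KC blood for the 9 genes with bars of 1 SE, by edgeR (circles), DESeq2 (squares) and edgeR within carry-over set 1 (upward triangles) or set 2 (downward triangles). The 4 estimates lie on the same side of 0 for Cd69, Itgae, Itga4, Itgal and Itgb2, with Itgb2 at 1.48 in edgeR, and on both sides for Cd44, Itga1, Itgb1 and Itgb7.

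Itgb2 (chr10:77530252-77565708, mm10, plus strand) encodes the beta 2 chain, which pairs with Itgal and with the alpha chains of myeloid integrins. It had 255, 536 and 2057 CPM (lowest, median and highest) in KC pancreas, against 21.1, 296 and 512 CPM in KC blood. Of the KC pancreas libraries, 7 lay above the highest blood library, and the ranges otherwise overlapped. The log2 fold change was 1.48 ± 0.45 (SE; edgeR's adjusted p = 0.186, rank 107 of all genes), and in DESeq2 it was 1.61 (adjusted p = 0.0463). Within set 1 alone it was 1.84 and within set 2 alone 0.94, neither called. In the 9 pairs of KC libraries that share a title number, Itgb2 was higher in pancreas in 9 of 9, which 0.124% of 13760 genes showed, while 0.494% were lower in pancreas in all 9. The labels do not say that such a number is an animal. The gap was widest in the pair of Sample_131P8 and Sample_131B8 (13 weeks), with 2057 CPM in pancreas and 21.1 CPM in blood, and narrow in the pair of 9 weeks, with 555 CPM in pancreas and 512 CPM in blood. Itgb2 is also high in myeloid cells, whose 6 markers summed to 1.77 to 247 CPM in KC pancreas (median 44.8) and 2.27 to 342 CPM in KC blood (median 3.32). By library, the 3 with most Itgb2 in KC pancreas had myeloid sums of 1.77 CPM (Sample_131P8, 2057 CPM of Itgb2), 153 CPM (Sample_132P8, 1174 CPM of Itgb2) and 115 CPM (Sample_43P8, 997 CPM of Itgb2), the lowest, the second highest and the third highest sums of the group. The part of myeloid cells in the Itgb2 levels was not tested.

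**Figure D3:**
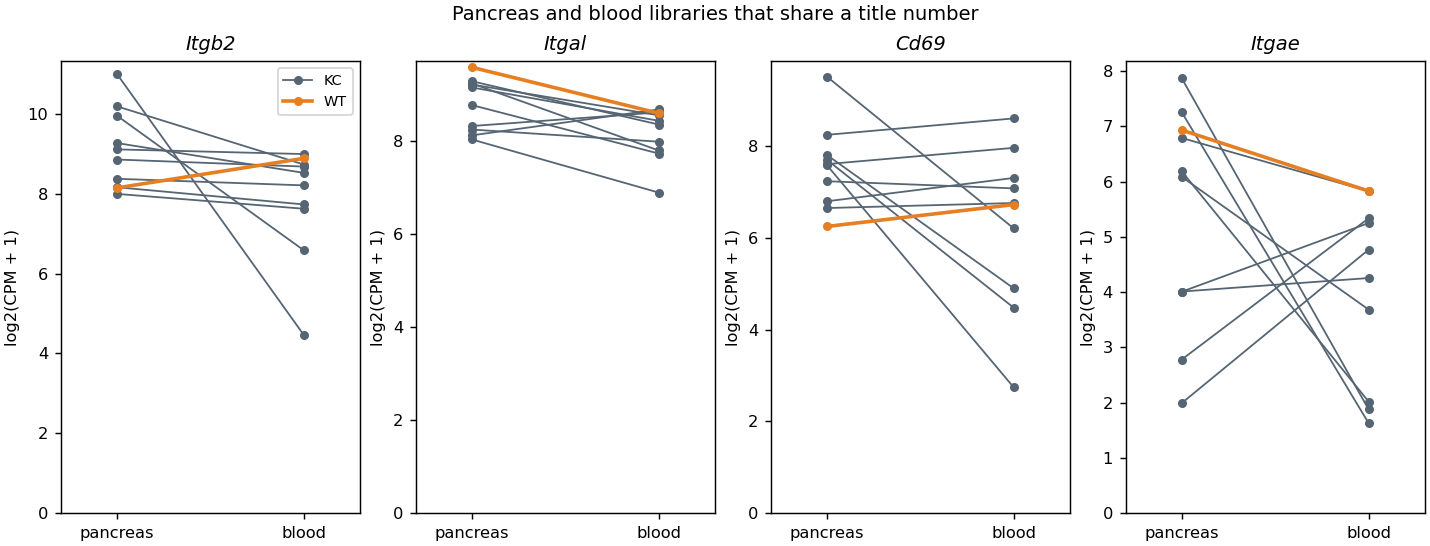
Log2(CPM + 1) of Itgb2, Itgal, Cd69 and Itgae in pancreas and blood libraries that share a title number, joined by lines (9 KC pairs in grey, 1 WT pair in orange). All 9 KC lines of Itgb2 are higher at pancreas and its WT line is lower there, while KC lines of Itgal, Cd69 and Itgae run both ways.

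Itgal (chr7:127296260-127335138, mm10, plus strand) encodes the alpha chain of LFA-1. It had 247, 504 and 980 CPM in KC pancreas, against 118, 327 and 410 CPM in KC blood (lowest, median and highest). Of the KC pancreas libraries, 7 lay above every blood library. The log2 fold change was 0.93 ± 0.41 (SE; edgeR's unadjusted p = 0.0289, adjusted p = 0.443). Within set 1 it was 0.37 and within set 2 it was 1.196. It was higher in pancreas in 7 of the 9 pairs. The chains of LFA-1 were each of higher median level in pancreas, yet across the 21 KC libraries their log2 levels correlated at 0.27 (Pearson's r, a description).

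Among the residency markers, Cd69 (chr6:129267325-129275436, mm10, minus strand) had 79.8, 194 and 736 CPM in KC pancreas, against 5.70, 108 and 390 CPM in KC blood. The lowest pancreas library lay above 4 of the 9 blood libraries, while the highest blood libraries, Sample_302B8 and Sample_303B8 of 30 weeks with 390 and 250 CPM, lay above most of pancreas. The log2 fold change was 1.43 ± 0.69 (SE; edgeR's unadjusted p = 0.0433, adjusted p = 0.490). It was 0.12 within set 1 and 1.06 within set 2, and 5 of the 9 pairs were higher in pancreas. Without the 4-week libraries it was 2.60 (edgeR's adjusted p = 0.180).

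Itgae (chr11:73090583-73147446, mm10, plus strand), the alpha chain that binds E-cadherin, had 2.97, 76.6 and 233 CPM in KC pancreas, against 2.09, 18.1 and 55.8 CPM in KC blood. Of the 12 KC pancreas libraries, 8 lay above the highest blood library, and the pancreas libraries Sample_132P8 and Sample_133P8 of 13 weeks, with 2.97 and 5.86 CPM, lay among the lowest of blood. The log2 fold change was 1.74 ± 0.90 (SE; edgeR's unadjusted p = 0.0583, adjusted p = 0.530), and DESeq2 gave 1.89 (adjusted p = 0.0384). It was 4.24 within set 1 and 1.05 within set 2, neither called. Without the 4-week libraries it was 0.97. Itgae is also made by some dendritic cells, whose 4 markers summed to 3.23 to 194 CPM in KC pancreas and 6.70 to 38.3 CPM in KC blood, with the defining Flt3 and Zbtb46 at 0 in every group. The highest dendritic sum, 194 CPM, of which Siglech made 190 CPM, was in Sample_43P8, the library with most Itgae (233 CPM), and the next in KC pancreas was 45.0 CPM in Sample_42P8. The part of dendritic cells in the Itgae levels was not tested. Mast cell markers reached 106 CPM in Sample_41P8, all of it from Kit, and that library had 232 CPM of Itgae. The part of mast cells in its Itgae level was not tested. Their defining Mcpt4 and Fcer1a were at 0 in every group.

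Itga1 (chr13:114953096-115101964, mm10, minus strand), the collagen-binding alpha 1 chain, was at or near 0 in most libraries. It had 0 counts in 7 of 24 libraries, 1 to 3 counts in 10 and more than 3 in 7. Most of its 1161 counts came from Sample_41P8 (422 counts, 34.4 CPM) and Sample_132P8 (404 counts, 52.2 CPM), both KC pancreas. The others with more than 3 counts were Sample_W3P8 (134), Sample_303B8 (111), Sample_302P8 (32), Sample_95B8 (22) and Sample_95P8 (18). Medians were 0.219 CPM in KC pancreas and 0.119 CPM in KC blood, about or below what 3 counts were worth in a library (0.1795 to 0.472 CPM). At this depth the log2 fold change of 2.44 ± 2.23 (SE; edgeR's adjusted p = 0.787) does not tell the tissues apart. In the KC pancreas library with most Itga1, Sample_132P8, Cd69 was at its highest (736 CPM) and Itgae at its lowest (2.97 CPM).

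The alpha 4 chain and its partners showed no difference between the tissues larger than the spread of libraries. Itga4 (chr2:79255426-79333123, mm10, plus strand) had 60.5, 243 and 822 CPM in KC pancreas, against 184, 347 and 1513 CPM in KC blood, with a log2 fold change of -0.50 ± 0.45 (SE; edgeR's adjusted p = 0.784). Of the KC pancreas libraries, 5 lay below the lowest blood library. Itgb1 (chr8:128685654-128733200, mm10, plus strand) had 33.2, 165 and 369 CPM in KC pancreas, against 29.4, 136 and 536 CPM in KC blood. The log2 fold change of Itgb1 was -0.21 ± 0.59, of the opposite sign to the difference of its medians. Itgb7 (chr15:102215995-102231944, mm10, minus strand) had 12.8, 168 and 438 CPM in KC pancreas, against 35.0, 128 and 242 CPM in KC blood, and its log2 fold change was 0.61 ± 0.54. The Itgb1 range in pancreas lay within that in blood, and the Itgb7 range in blood lay within that in pancreas. Cd44 (chr2:102811141-102901665, mm10, minus strand) had 5.82, 38.9 and 270 CPM in KC pancreas, against 4.55, 73.4 and 188 CPM in KC blood. Its log2 fold change was 0.13 ± 0.74, of the opposite sign to the difference of the medians, and 3 of the 9 pairs were higher in pancreas.

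The promoters of Itga4, Itgb1 and Itgb7 are shown because alpha 4 can pair with either beta chain, while the levels of these 3 genes did not follow each other over libraries. Each stretch is the 250 bases before the RefSeq gene start, 5′ to 3′ on the gene's strand (mm10, GRCm38.p6: Itga4 chr2:79255176-79255425, Itgb1 chr8:128685404-128685653, Itgb7 chr15:102231936-102232185). Capitals mark GGGCGG (GC box), CACCC (the core bound by KLF factors) and TGTGGT (the core bound by RUNX factors) on either strand.
Itga4: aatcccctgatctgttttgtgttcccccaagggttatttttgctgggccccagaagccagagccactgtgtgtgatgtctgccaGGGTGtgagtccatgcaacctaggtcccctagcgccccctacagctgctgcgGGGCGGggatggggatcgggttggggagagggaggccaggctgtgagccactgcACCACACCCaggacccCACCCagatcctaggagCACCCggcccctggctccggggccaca
Itgb1: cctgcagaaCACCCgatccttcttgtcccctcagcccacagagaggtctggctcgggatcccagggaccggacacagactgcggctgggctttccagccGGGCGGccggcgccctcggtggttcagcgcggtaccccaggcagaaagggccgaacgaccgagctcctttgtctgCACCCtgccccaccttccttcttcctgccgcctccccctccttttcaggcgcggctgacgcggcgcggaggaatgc
Itgb7: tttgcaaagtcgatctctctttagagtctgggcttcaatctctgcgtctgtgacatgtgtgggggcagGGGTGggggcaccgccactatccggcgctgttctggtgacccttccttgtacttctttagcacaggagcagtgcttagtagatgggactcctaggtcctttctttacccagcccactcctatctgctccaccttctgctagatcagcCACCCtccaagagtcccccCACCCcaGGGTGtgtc
The Itga4 stretch holds 1 GC box, 4 CACCC and 1 TGTGGT on the minus strand that overlaps a CACCC. The Itgb1 stretch holds 1 GC box and 2 CACCC, and the Itgb7 stretch holds 4 CACCC. Of 32851 RefSeq promoter windows of this length, 32.7% hold GGGCGG, 52.0% hold CACCC, 14.0% hold TGTGGT and 6.75% hold TGANTCA, the AP-1 core, which none of the 3 stretches holds. The motifs are matches of letters and not sites of binding.

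The share of the beta chains varied widely among libraries of either tissue, and the median share of Itgae was higher in pancreas. Itgb7 made up 45.7% (median, range 15.1% to 88.6%) of the summed CPM of Itgb7 and Itgb1 in KC pancreas, against 46.3% (11.7% to 85.9%) in KC blood. In WT it made up 62.5% and 82.8% in the pancreas libraries and 59.9% in the blood library. Itgae made up 24.7% (0.360% to 49.4%) of the summed CPM of Itgae and Itga4 in KC pancreas, against 3.30% (0.138% to 15.9%) in KC blood. Of the 12 KC pancreas libraries 7 passed 15.9%, the highest value in KC blood. The share was 27.5% and 38.5% in WT pancreas and 19.7% in WT blood. These shares are of CPM and are not corrected for transcript length, and they were not tested.

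**Figure D4:**
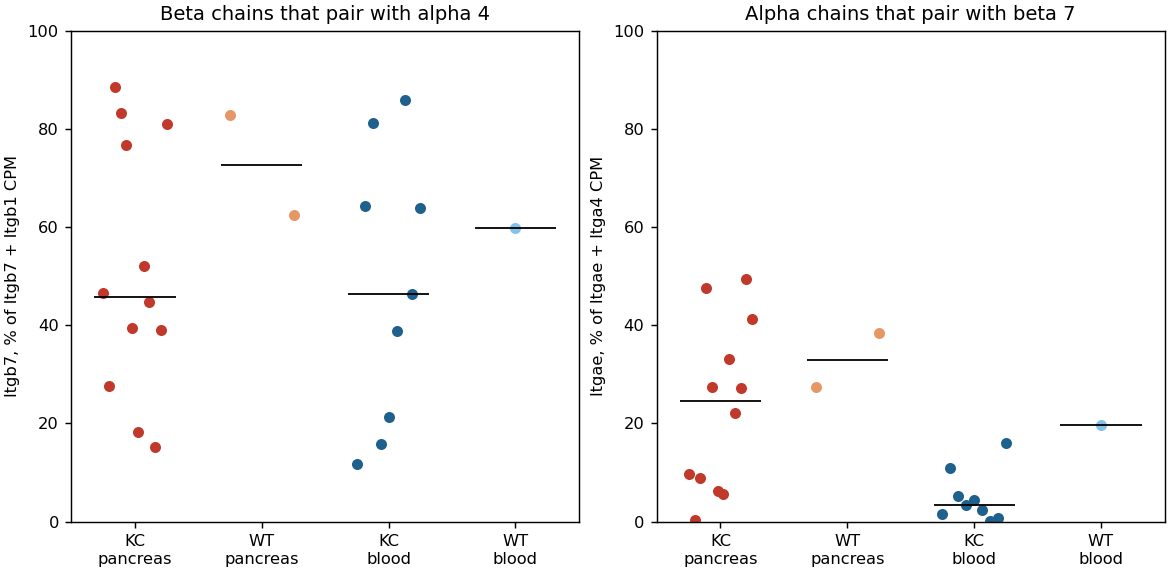
Percent of Itgb7 in the summed CPM of Itgb7 and Itgb1 (left) and of Itgae in that of Itgae and Itga4 (right), each point a library, with a line at each group's median. The beta chain share spreads alike in KC pancreas and KC blood, while the Itgae share passes 15.9% only in pancreas libraries and WT blood.

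In KC pancreas the age trend was fitted over 12 libraries in log2 per 10 weeks. None of the 9 genes was called, where 0.293% of 9555 genes were, and 0 of the 9 reached an unadjusted p under 0.05, beside 8.95% of all genes. DESeq2 also called 0 of the 9, where it called 5.61% of genes. The median slope of the 9 was -0.44, beside -0.04 over all genes. Itgae had the lowest unadjusted p, with a slope of -1.001 ± 0.52 (SE; edgeR's unadjusted p = 0.0690, adjusted p = 0.617). Cd69 had a slope of 0.41 ± 0.55 (edgeR's adjusted p = 0.938). The other slopes ran from -1.23 ± 1.57 for Itga1 and -0.49 ± 0.45 for Itgb2 to 0.03 ± 0.32 for Itgb1.

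By library, Itgae in KC pancreas had 152, 232 and 233 CPM at 4 weeks, 81.3 and 110 CPM at 9 weeks, 2.97, 5.86 and 71.9 CPM at 13 weeks, 67.0 and 143 CPM at 20 weeks, and 15.1 and 15.1 CPM at 30 weeks. All 3 libraries of 4 weeks lay above the 9 later ones, the closest being Sample_42P8 with 152 and Sample_204P8 with 143 CPM. Cd69 had 79.8, 99.9 and 111 CPM at 4 weeks, 131.8 and 150.3 CPM at 9 weeks, 192, 224 and 736 CPM at 13 weeks, 208 and 223 CPM at 20 weeks, and 195 and 304 CPM at 30 weeks. All 3 libraries of 4 weeks lay below the 9 later ones. Acinar markers, which come from the digestive enzyme cells of the pancreas, also set these 3 libraries apart: they summed to 1316, 7515 and 3646 CPM at 4 weeks (Sample_41P8, Sample_42P8 and Sample_43P8), against 0 to 161 CPM in the 9 later libraries, and their part in the Itgae and Cd69 values was not tested. Among 12643 genes, 0.973% lay wholly above the later ages at 4 weeks and 0.229% wholly below. In a fit of later ages against 4 weeks, added after these values were seen, Itgae differed by -1.73 (edgeR's adjusted p = 0.557) and Cd69 by 2.03 (adjusted p = 0.485). The libraries of 4 and 13 weeks are of set 1 and those of 9, 20 and 30 weeks of set 2. With the set as a term the differences were -2.53 for Itgae (adjusted p = 0.295) and 2.97 for Cd69 (adjusted p = 0.134), and without the 4-week libraries the slope of Cd69 was -0.42.

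**Figure D5:**
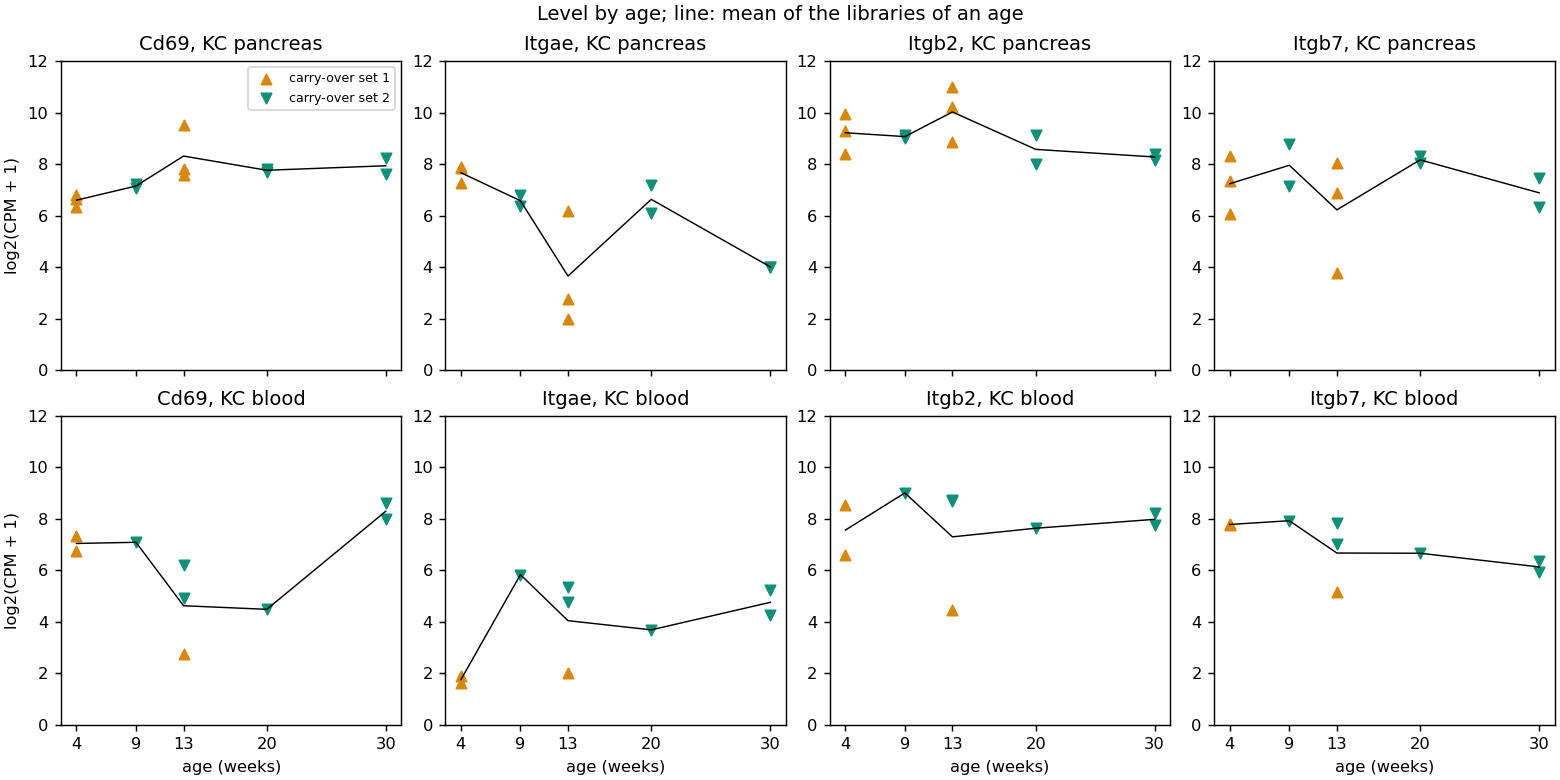
Log2(CPM + 1) of Cd69, Itgae, Itgb2 and Itgb7 against age in weeks in KC pancreas (top) and KC blood (bottom), each marker a library, with a line through the mean at each age and upward or downward triangles for carry-over set 1 or 2. In KC pancreas the 4-week points of Itgae lie above, and those of Cd69 below, all later points.

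The remaining genes showed no separation of 4 weeks from later ages in KC pancreas. Itgb2 had 339, 620 and 997 CPM at 4 weeks, 517 and 555 CPM at 9 weeks, 465, 1174 and 2057 CPM at 13 weeks, 255 and 563 CPM at 20 weeks, and 287 and 332 CPM at 30 weeks. Its highest libraries were thus of 13 weeks and its lowest of 20 and 30 weeks. Itgal had 605, 625.2 and 781 CPM at 4 weeks, and its highest library of all was Sample_204P8 of 20 weeks with 980 CPM. Itga4 had 469, 535 and 624 CPM at 4 weeks and at most 256 CPM at 9, 20 and 30 weeks. At 13 weeks it had 60.5, 663 and 822 CPM, which include its lowest and its highest KC pancreas library.

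In KC blood the age trend was fitted over 9 libraries, in which Itga1 was too low to be tested. None of the other 8 genes was called by edgeR, which called 0% of 9933 genes there, and 1 of the 8, Itgb7, reached an unadjusted p under 0.05, beside 8.76% of all genes. Itgb7 had 216 and 220 CPM at 4 weeks, 242 CPM at 9 weeks, 35.0, 128 and 225 CPM at 13 weeks, 100.1 CPM at 20 weeks, and 59.3 and 80.2 CPM at 30 weeks. Its slope was -0.96 ± 0.42 per 10 weeks (SE; edgeR's unadjusted p = 0.0309, adjusted p = 0.530, DESeq2's adjusted p = 0.0917). The 4-week blood libraries were of set 1 and those of 30 weeks of set 2. In KC blood, Itgae had its lowest levels at 4 weeks, 2.09 and 2.68 CPM, where KC pancreas had its highest. The difference of the 2 trends, pancreas minus blood, was called for none of the 9 genes, where 0.0543% of 11059 genes were, and 0 of the 9 reached an unadjusted p under 0.05, beside 8.33% of all genes. DESeq2 called 0 members in either test, where it called 3.68% of genes for the trend in blood and 2.78% for the difference. The difference was -1.29 ± 0.82 for Itgae (SE; edgeR's adjusted p = 0.724) and 0.998 ± 0.55 for Itgb7 (adjusted p = 0.660).

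KC pancreas was compared with WT pancreas at 9 and 30 weeks in a fit of 14 libraries. Cd69 showed the widest gap of the 9 genes, and none was called by edgeR, where 0.194% of 10829 genes were. At these ages Cd69 had 131.8 and 150.3 CPM (9 weeks) and 195 and 304 CPM (30 weeks) in KC pancreas, against 13.8 CPM (9 weeks) and 75.3 CPM (30 weeks) in WT pancreas. All 4 KC libraries lay above both WT libraries, and the share of all genes that did so was not counted. The log2 fold change of Cd69 was 2.49 ± 0.97 (SE; edgeR's unadjusted p = 0.0142, adjusted p = 0.957, DESeq2's adjusted p = 0.177). It was 1 of 9 at an unadjusted p under 0.05, beside 5.03% of all genes, and DESeq2 called 0 of the 9, where it called 1.9% of genes. Itgae had 81.3 and 110 CPM (9 weeks) and 15.1 and 15.1 CPM (30 weeks) in KC pancreas, against 49.3 CPM (9 weeks) and 121 CPM (30 weeks) in WT pancreas, with a log2 fold change of -1.43 ± 1.40. Itgal had 247 and 570 CPM (9 weeks) and 278 and 438 CPM (30 weeks) in KC pancreas, against 568.5 CPM (9 weeks) and 769 CPM (30 weeks) in WT pancreas, with a log2 fold change of -0.88 ± 0.66. The other log2 fold changes ran from -0.99 ± 2.36 for Itga1 to 1.21 ± 1.01 for Itgb1. The KC libraries of these ages were all of set 2 and the WT libraries of set 1, so that genotype and set cannot be told apart. Acinar markers summed to 0, 0.131, 0.353 and 59.0 CPM in the 4 KC libraries, against 3118 CPM (9 weeks) and 799 CPM (30 weeks) in WT pancreas, and their part in these differences was not tested.

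In blood at 30 weeks, with 1 WT library, none of the 9 genes was called by edgeR, which called 0% of 12496 genes, and 0 of the 9 reached an unadjusted p under 0.05, beside 2.83% of all genes. DESeq2 called 0 of the 9, where it called 0.032% of genes. Cd69 had 390 and 250 CPM in KC blood, against 105 CPM in WT blood. Itga4 had 788 and 772 CPM in KC blood, against 228 CPM in WT blood, and Itgb7 had 59.3 and 80.2 CPM in KC blood, against 212 CPM in WT blood. In these 3 genes both KC libraries lay on 1 side of the WT library, as they also did in Itgae, Itga1 and Itgb2. In Cd44, Itgal and Itgb1 the WT library lay between them. The share of all genes with both KC libraries on 1 side was not counted. The WT library is assumed in this fit to vary like the KC libraries, and the KC libraries of 30 weeks were of set 2 and the WT library of set 1.

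The WT pancreas and blood libraries of 30 weeks share a title number and were set side by side with no test. Itgae had 121 CPM in WT pancreas, against 55.9 CPM in WT blood, and Itgal had 769 CPM in WT pancreas, against 387 CPM in WT blood. Itga1 had 134 counts in WT pancreas, against 0 counts in WT blood, where 3 counts would be worth 0.179 CPM. Cd69 had 75.3 CPM in WT pancreas, against 105 CPM in WT blood, and Itgb2 had 284 CPM in WT pancreas, against 475 CPM in WT blood. Itgb2 thus stood lower in WT pancreas than in WT blood, opposite in sign to the 9 KC pairs. Its log2 ratio in the WT pair was -0.74, beside a median of -0.53 over all genes of that pair.

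Other genes of integrin biology were taken from lists. Of 19 other integrin chains in the files, 6 were high enough to test between KC tissues, 3 had a positive log2 fold change and 0 were called, with a median of -0.44. Itga6, the laminin-binding alpha 6 chain, had medians of 189 CPM in KC pancreas and 223 CPM in KC blood. Itga2b, the alpha chain of the platelet integrin, differed by -2.03 (edgeR's adjusted p = 0.651). Its median was 0.096 CPM in KC pancreas (highest 92.2) and 0.417 CPM in KC blood (highest 5.05), so its highest KC library was of pancreas. Platelet markers summed to 1.46 to 5.51 CPM in KC pancreas and 39.5 to 291 CPM in KC blood, and the part of platelets in the Itga2b values was not tested. Of 22 genes of integrin activation and adaptors, 11 were positive and 0 were called (median 0.02), with Pxn (paxillin, an adaptor at adhesions) at 2.28 (adjusted p = 0.516) and Fermt3 (kindlin-3, an activator of integrins in blood cells) at 2.07 (adjusted p = 0.531). The 3 proteins that link CD44 to actin were positive in 3 of 3 and called in 0, with radixin (Rdx) at 1.14 (edgeR's adjusted p = 0.437) and moesin (Msn) at 0.13. Over all genes tested the median was -0.12 and 0.0904% were called.

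Of 12 genes of ligands and counter-receptors, 6 were tested, 5 were positive and 0 were called between tissues, with a median log2 fold change of 2.15. Cdh1, which encodes E-cadherin, the ligand of CD103, stood at 2.80 (edgeR's adjusted p = 0.443), and Col3a1, a fibrillar collagen, at 3.87 (adjusted p = 0.345). The median of Cdh1 was 1.69 CPM in KC pancreas (highest 259) and 1.22 CPM in KC blood (highest 4.30). That of Col3a1 was 0.129 CPM in KC pancreas (highest 79.7) and 0 CPM in KC blood (highest 0.455). Madcam1 had 0 counts. In the age trend of KC pancreas Col3a1 fell by 6.02 on the log2 scale per 10 weeks (edgeR's adjusted p = 0.0225), 1 of 6 tested ligand genes. This call was lost with the set as a term, where the slope was -4.57 (edgeR's adjusted p = 0.631). It was also lost without any 1 of Sample_204P8, Sample_205P8, Sample_302P8 and Sample_303P8, where slopes were -5.89 to -6.39 (adjusted p = 0.0510 to 0.0612). At 30 against 4 weeks Col3a1 differed by -11.3 (edgeR's adjusted p = 0.308), and at later ages against 4 weeks by -7.44 (adjusted p = 0.0687). Without any 1 of the 3 libraries of 4 weeks Col3a1 was too low to be tested. Fibroblast markers summed to 0 to 530 CPM in KC pancreas and 0 to 1.65 CPM in KC blood, highest in Sample_43P8 of 4 weeks. Col3a1 is itself 1 of these 6 markers, and its highest value, 79.7 CPM in Sample_43P8, is part of that sum. Col1a2, another of the 6, had 221 CPM in the same library. The part of fibroblasts in the Col3a1 values was not tested.

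Of 19 genes of the residency programme other than the 9 genes above, 18 were tested between tissues, 14 were positive and 1 was called, with a median of 0.31. Rgs2, a regulator of G protein signalling, rose in KC pancreas by 3.69 ± 0.60 on the log2 scale (SE; edgeR's adjusted p = 0.000771), with a median of 247 CPM in KC pancreas and 18.3 CPM in KC blood. Within set 1 alone the difference was 4.44 and was not called (edgeR's adjusted p = 0.311). Within set 2 alone it was 3.88 (edgeR's adjusted p = 0.00796), and with the set as a term 4.15 (adjusted p = 0.000256). Rgs1, its relative, had medians of 79.3 CPM in KC pancreas and 3.81 CPM in KC blood, and did not pass (edgeR's adjusted p = 0.187). Of 16 genes of egress and recirculation, 6 were positive and 0 called, with a median of -0.16. S1pr1, the receptor that CD69 opposes, had medians of 811 CPM in KC pancreas and 891 CPM in KC blood, and its transcription factor Klf2 had 81.2 CPM in KC pancreas and 144 CPM in KC blood. In the age trend of KC pancreas 0 genes of these lists were called other than Col3a1. Slopes were positive for 8 of 18 residency genes, 4 of 14 egress genes and 10 of 22 genes of activation and adaptors. The same held for 3 of 4 other integrin chains, 1 of 6 ligand genes and 1 of 3 CD44 linkers. Over all genes tested the median slope was -0.04, and the share with a positive slope was not counted.

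Among 5513 genes with a mean of at least 20 CPM, those whose log2(CPM + 1) most resembled each of the 9 genes over the 21 KC libraries were found by Pearson's r, as a description of libraries that share tissue, age and set. For Cd69 these were Rgs19 (r = 0.753) and Prkca (0.752), for Itgae Cct3 (0.821), and for Itga1 Fcho1 (0.684) and Smad3 (0.671). For Itgb2 they were Fkbp15 (0.777) and Baz1b (0.764), and for Itgal Lat (0.718) and Iqgap1 (0.706). For Itga4 they were Pde7a (0.820) and Mki67 (0.710), for Itgb1 Ccr2 (0.758) and Ambra1 (0.751), for Itgb7 Lbr (0.787) and Polr3b (0.757), and for Cd44 Zswim6 (0.815) and Slc14a1 (0.810). Among the 9 genes themselves the closest were Cd44 with Itgb1 (0.574) and Cd69 with Itgb2 (0.562). Partner chains were less alike, with Itgae and Itgb7 at 0.374 and Itga4 and Itgb7 at -0.384.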

How the data were processed

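For 24 libraries of sorted CD8 T cells (RNA by Rneasy Plus Micro kit, per the labels), the authors' raw read count of each gene symbol was used as deposited. Each file ends in 5 tallies of reads given to no gene, which were kept out of library totals, and 11.7% to 32.5% of the tallied reads of a library were in genes. The submitters' processing notes name TopHat, SAMtools, HTSeq, DESeq and mm10, with no settings. Strand use is not given in the sources used here, so reads of Itga4 cannot be told from those of the overlapping Cerkl on the other strand (366 counts), and Itga1 overlaps Pelo (363 counts). Positions came from GENCODE M21 of the same build, promoters from RefSeq. Promoter sequence was printed for 3 of the 5 genes that matched there.

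Counts were tested with edgeR 4.0.16 (two-sided quasi-likelihood F-tests with robust dispersion, TMM normalisation, low genes removed by filterByExpr at a count of 10), with Benjamini-Hochberg adjustment over all genes of a comparison and calls under 0.05. The SE is the absolute log2 fold change over the square root of F. DESeq2 1.42.0, RLE scaling, no filter, no age term, single libraries left out and fits by carry-over set were alternatives, and the edgeR fits were tested on simulated data. DESeq2 gave no adjusted p for Itga1 in 4 comparisons and for Itgal in the trend of KC blood. Members, lists and tests were chosen with earlier results of these data known. Genes other than the 9 were named as up to 2 per list with the smallest p or as likeness leaders, while S1pr1, Klf2, Rgs1, Itga6, Msn, Cdh1 and Madcam1 were added for their role after their values were seen. Of these, Cdh1 and Msn were also among the 2 genes with the smallest p of their lists between KC tissues. A few list and likeness genes are left unnamed here. Floors, the worth of 3 counts in a library, cover counting error only, while the SE also holds the spread between libraries.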

Additional observations from a re-analysis of the deposited data

Results flagged for a closer look

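In KC blood, a group of 9 libraries, single libraries stood apart from the others for 3 genes. The measure behind this was applied to KC blood only. Itga4 had 1513 CPM in Sample_42B8 of 4 weeks, with the next library at 788 CPM. Itgb1 had 536 CPM in Sample_205B8 of 20 weeks, with the next at 264 CPM. Itga1 had 15.4 CPM in Sample_303B8 of 30 weeks, with the next at 1.97 CPM. KC pancreas was not put to this measure. There Cd69 had 736 CPM in Sample_132P8, with the next at 304 CPM, and Itgb2 had 2057 CPM in Sample_131P8, with the next at 1174 CPM. For normally distributed values chance flags about 1 in 20 groups by this measure. Whether CPM values are so distributed was not checked. Itgb2 was lower in WT pancreas than in WT blood at 30 weeks by -0.741 (difference of log2(CPM + 1), 1 library each), opposite to the 9 of 9 KC pairs, in which it was higher in pancreas. The log2 ratio had a median of -0.53 over all genes of this WT pair. The difference between genotypes was not tested.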

How the results depend on the processing

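Over all edgeR alternatives run, 0 members were called in any comparison, and DESeq2 called 2 members between tissues (edgeR 0). Of the other values of members, 965 kept their direction and side of the threshold and 106 changed sign, 65 of them when a library was left out, all of them values that were not called. The causes were not tested.

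Between tissues the log2 fold change of Itgb7 was -0.20 within set 1, and within set 2 those of Cd44, Itga1 and Itgb1 were -0.43, -1.60 and 0.067. Without the 4-week libraries Cd44 was -0.21. With the title number as a replicate block in 18 libraries Itgb1 was 0.20. That block gave 14 called genes, against 8 in the same libraries without it, and 0 members, so it changed no call of a member. For libraries with the same number, deviations from the mean of their group and age correlated at -0.0550 to 0.0121 in 7 pairs. These 7 are not independent: each tissue had 2 libraries at 30 weeks, so the 2 pairs of that age give the same value by construction. The correlations do not settle whether a number is an animal.

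For the age trend in KC pancreas with the set as a term, Itga1, Itga4, Itgal, Itgb2 and Itgb7 were 0.98, 0.69, 0.15, 0.18 and -0.13. Comparing 30 with 4 weeks, Itgb7 was -0.37. Later ages against 4 weeks gave 0.34 for Itga1, -0.86 for Itgb1 and 0.50 for Itgb2. With the set as a term this contrast gave 1.86 for Itga1, 0.75 for Itga4, 0.20 for Itgal, -1.53 for Itgb1 and 1.57 for Itgb2. Within set 1 (4 and 13 weeks) Itga4, Itgal, Itgb1 and Itgb2 were 0.90, 0.30, -1.65 and 1.80, and within set 2 Itga4, Itgal and Itgb7 were 0.64, 0.10 and -0.36. Without the 4-week libraries Cd69 was -0.42 and Itgb7 -0.25. For the trend in KC blood with the set as a term, Cd44, Itgae, Itga4, Itgal and Itgb1 were -0.030, -0.19, 0.26, 0.12 and 0.79. For the difference of trends Itga4 was 0.082 with RLE scaling, 0.011 with no filter, 0.082 in DESeq2 and 0.13 with the set as a term, where Itgb1 was -0.039 and Itgb2 0.023. For KC against WT pancreas with no filter Itga4 was -0.027.

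With each library left out in turn, values ran as follows between tissues: Cd44 -0.15 to 0.67 and Itgb1 -0.43 to 0.44. In the trend of KC pancreas Itgal ran from -0.28 to 0.021, Itgb1 from -0.19 to 0.22 and Itgb7 from -0.13 to 0.29. In the trend of KC blood Cd69 ran from -0.12 to 0.42, Itga4 from -0.57 to 0.25 and Itgb1 from -0.28 to 0.28. In the difference of trends Itga4 ran from -0.68 to 0.17, Itgb1 from -0.23 to 0.29 and Itgb2 from -0.37 to 0.18. Against WT pancreas Cd44 ran from -0.21 to 1.77, Itga1 from -2.76 to 1.02, Itga4 from -0.46 to 0.51 and Itgae from -2.82 to 0.69. Against WT blood Cd44 ran from -0.39 to 0.92, Itgal from -1.004 to 0.078 and Itgb1 from -0.18 to 0.49.

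Counts of called genes over the whole table moved more than those of members. Between tissues they were 10 as reported, 34 with no filter, 65 with no age term, 480 in DESeq2, 6 within set 1, 2 within set 2, 4 without the 4-week libraries and 6 (without Sample_302P8) to 21 (without Sample_131B8) with a library left out. For the trend in KC pancreas they were 28 as reported, 686 with no filter, 422 in DESeq2, 0 with the set as a term and 10 (without Sample_42P8) to 31 with a library left out. For the trend in KC blood they were 0 as reported, 102 with no filter, 317 in DESeq2 and up to 12 with a library left out (Sample_302B8 or Sample_303B8). For the difference of trends they were 6 as reported, 0 with RLE scaling, 242 in DESeq2, 1 with the set as a term and 0 (without any 1 of 9 libraries) to 13 (without Sample_302P8) with a library left out. Against WT pancreas they were 21 as reported, 163 in DESeq2 and 4 (without Sample_W1P8) to 25 with a library left out, and against WT blood 0 as reported and 4 in DESeq2. RLE scaling moved the median log2 value of all genes from -0.12 to -0.24 for the trend in KC blood and from 0 to 0.18 against WT blood. Depth limits Itga1, which had at most 3 counts in 17 libraries.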
